A study of Mus musculus with 22 samples.

Results

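The cytosolic ribosomal protein genes encode the proteins of the 40S and 60S subunits of the ribosome that works in the cytoplasm. Members were chosen by name: every gene of the table called Rpl or Rps followed by a number and at most 2 letters, together with Rplp0, Rplp1, Rplp2 and Rpsa, without the copies that carry -ps in their names and without the Rps6k kinases. The rule used no measured value and gave 86 of 37786 genes, 53 with large subunit names and 33 with small subunit names. Of these, 82 had at least 10 raw counts in at least 10 of 22 mice and were tested among 17524 genes. The other 4, Rpl10l, Rpl32l, Rpl39l and Rpl6l, had a median of 2 counts or fewer per mouse and were not tested. The name rule also took in genes annotated as processed pseudogenes: Rps4l and Rpl37rt among the tested and Rpl32l and Rpl6l among the others.

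RNA was sequenced from whole pieces of the anterior cingulate cortex (ACC), a frontal area engaged in pain and mood, taken from 12 control and 10 stimulated wildtype male C57BL/6J mice that were 8 weeks old when procedures began. All mice had received an AAV5 vector with channelrhodopsin-2 and EYFP under the CaMKIIa promoter in both basolateral amygdalae (BLA) and an optic fibre on 1 side of the ACC, and were housed alone after the implant. Stimulated mice received blue light on BLA axon endings in 9 sessions, control mice went through the same handling with the light off, and the ACC of both sides was taken 48 h after the last session. The comparison asks which transcripts of the ACC differ after repeated activation of this pathway. The labels number the libraries 1 to 23 without 7. Numbers 1 to 11 hold 6 control and 4 stimulated mice, and numbers 12 to 23 hold 6 of each. The study describes 2 batches of mice, but the labels do not say which mouse belonged to which, so the 2 runs of library numbers stand in for them here.

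Ribosomal proteins are made in near equal numbers and assemble with ribosomal RNA in the nucleolus, and surplus free protein is degraded. Their mRNAs are short, abundant in growing cells and known for a tract of pyrimidines that begins with a C at the first base, the 5′ TOP motif, through which mTORC1 and the protein LARP1 set how much of them is translated. In neurons the mRNAs are also found in axons and dendrites. Their genes have left many processed copies in mammalian genomes, so that short reads from a ribosomal protein mRNA often match several places.

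The start of 64 members was held in the RefSeq promoter table used here (build GRCm38.p6, 250 bases before and 50 after each start). A C followed by at least 4 pyrimidines, within 5 bases of the annotated start, was present in 30 of them (46.9%) and in 21.2% of the 27025 genes of the table. The windows below run from 10 bases before the start to 20 bases from it, with the tract in capitals. They show the longest tracts among the genes described below, a shorter one in Rps6, and the near-identical starts of Rps27 and its intronless copy Rps27rt beside the diverged paralog Rps27l.
Rpl27a (chr7:109519185-109519214, plus strand): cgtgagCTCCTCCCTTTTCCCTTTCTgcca
Rpl15 (chr14:18270967-18270996, minus strand): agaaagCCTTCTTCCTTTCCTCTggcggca
Rpl13a (chr7:45128726-45128755, minus strand): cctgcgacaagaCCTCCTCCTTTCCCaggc
Rps10 (chr17:27635225-27635254, minus strand): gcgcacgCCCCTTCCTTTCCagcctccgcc
Rps6 (chr4:86857348-86857377, minus strand): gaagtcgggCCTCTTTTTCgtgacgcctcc
Rps15a (chr7:118116128-118116157, minus strand): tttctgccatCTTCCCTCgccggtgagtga
Rps27 (chr3:90213629-90213658, minus strand): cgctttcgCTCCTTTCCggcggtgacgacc
Rps27rt (chr9:114982720-114982749, minus strand): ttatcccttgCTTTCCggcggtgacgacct
Rps27l (chr9:66946076-66946105, plus strand): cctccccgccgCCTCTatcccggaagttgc
Rps4x (chrX:102189372-102189401, minus strand), which has no such tract at its annotated start: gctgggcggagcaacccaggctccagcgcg
The tract ran to 20 bases in Rpl27a, 17 in Rpl15, 14 in Rpl13a and 13 in Rps10. Of 4 short motifs searched on both strands of the promoter windows, the letters CCGGAAG, the core of sites bound by ETS-family factors, were found in 39.1% of the members and 9.93% of all genes. AAGATGG, found in sites of YY1, was present in 14.1% of the members and 7.28% of all genes, and GGGCGG, the GC box, in 57.8% and 38.2%. TATAAA was found in 10.9% and 15.7%. The last 3 bases of CCGGAAG are the first 3 of AAGATGG, so that 1 stretch can hold both.

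The deposited counts come from uniquely aligned reads of 50 bases, so a stretch of mRNA that occurs elsewhere in the genome adds nothing to its gene. For 1 transcript per member, the share of its 50-base windows found in the annotated transcripts of no other gene (GENCODE M21) had a median of 41.3% over the 86 members. It was under 50% for 55 members and under 20% for 20, and 83 members shared at least 1 window with an annotated pseudogene. Rps27 had 1.35% of its windows to itself, since Rps27rt holds 292 of the 296. Rpl7a shared windows with 123 other genes, 120 of them pseudogenes, and Rpl21 with 82. Rpl3l and Rpl39l had every window to themselves. In addition, 38 of the 82 tested members overlapped another annotated gene in exons. The library kit does not mark strand, so reads of such a pair cannot be told apart where they overlap. Levels of such members are the part of each mRNA that could be counted.

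On a scale per length, CPM per kilobase of transcript (CPM is the count relative to the TMM-scaled library size), the highest median level over the 22 mice was that of Rpl4, a large subunit protein that lines the exit tunnel, at 221. Rpl8, a core protein of the large subunit, followed at 155, Rps14, which sits in the platform of the small subunit, at 143. Rps3, at the mRNA entry channel, had a level of 114. Rpl41, which encodes the shortest ribosomal protein, had a level of 105, Rplp1 of the stalk 97.1 and Rps9 of the mRNA entry region 92.9. The lowest levels were 0.337 for Rpl3l, the striated muscle paralog of Rpl3, 0.885 for Rpl24 and 0.937 for the copy Rps27rt. The order is given beside the unique sequence of each gene and is not an order of mRNA amounts.

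**Figure D1:**
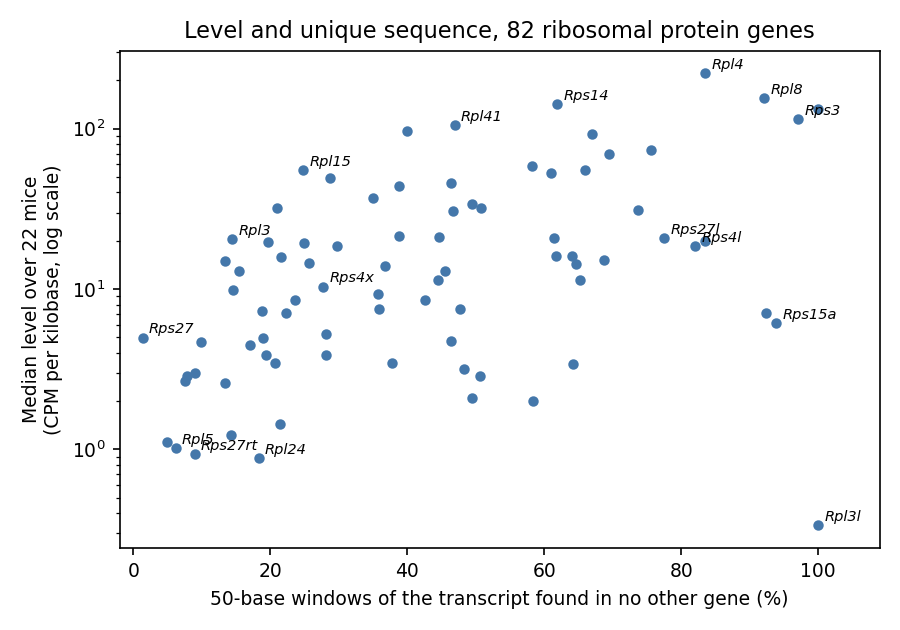
Each of the 82 points is a tested gene; the x axis is the percentage of 50-base windows of its transcript found in no other gene and the y axis the median level over 22 mice in CPM per kilobase, on a log scale. Levels rose with unique sequence from Rpl5, Rps27rt and Rpl24 at the lower left to Rpl4, Rpl8 and Rps3 at the upper right, with Rpl3l as the point that has every window to itself and the lowest level.

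Across the 82 genes the level per kilobase rose with the share of unique windows (Spearman's rho 0.50, Pearson's r 0.45 on the log2 level). Genes are not independent replicates, and all points come from the same 22 libraries. The median level was 4.19 CPM per kilobase over the 20 members with under 20% unique windows and 19.8 over the 9 with over 80%. Dividing by unique windows in place of length took the SD of the log2 level across members from 2.0 to 1.8. Rpl24, a bridge protein of the large subunit, shared 436 windows with the overlapping gene Gm28037, and Rpl23a, at the exit of the tunnel, shared 369 with Rpl23a-ps3. Of the 252 named -ps copies in the table, 8 passed the count minimum, and all 252 together took at most 0.00318% of the counts of a mouse.

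The paralog pairs differed in level, and their own unique shares differed as well. Rps4x, the X-linked gene of a small subunit protein, had 10.4 CPM per kilobase with 27.8% unique windows. Rps4l, an intronless copy on chromosome 6 (148354656 to 148355598) annotated as a transcribed processed pseudogene, had 18.5 with 82.03%. Rps27l, a p53-responsive paralog of Rps27, had 20.8 against 4.98 for Rps27, and Rpl36al had 14.0 against 9.87 for the X-linked Rpl36a. Rpl3 had 20.6 CPM per kilobase although 14.4% of its windows were unique, while Rpl3l, all of whose windows were unique, had 0.337. Rpl10l, a testis paralog of the X-linked Rpl10, had at most 1 count in any mouse, and Rpl39l, a testis paralog of Rpl39, had a median of 1 count and at most 18.

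No ribosomal protein gene passed the test between stimulated and control mice. When the model held both group and run, 0 of 82 members had an adjusted p under 0.05 by edgeR's quasi-likelihood test with Benjamini-Hochberg adjustment over 17524 genes, as did 0% of all genes. The count of members was also 0 with DESeq2's Wald test and with limma voom. At an unadjusted p under 0.05 there were 2 members (2.44%), Rps4x and Rpl21, against 11.5% of all genes tested. The log2 fold changes of the members lay between -0.24 and 0.25 with a median standard error of 0.12. The smallest adjusted p among them was 0.361, and over all genes it was 0.241. For 72 members the whole interval of ±1.96 SE lay inside ±0.5 on the log2 scale. For the other 10 it reached past that bound, and 23 of the 82 had a median count under 100. In 0 members did all mice of one group lie above all mice of the other, against 0.00571% of all genes.

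The members leaned to one side without passing the test. In the fit with run, 67 of 82 had a log2 fold change above 0, against 52.6% of all genes, and the median was 0.07, against 0.01 over all genes tested. The count below 0, 15, was 36 without stimulated mouse 10 (median 0.02), 29 without control mouse 4 (median 0.03) and 23 without stimulated mouse 1 (median 0.04), and the median was 0.04 without control mouse 8 and 0.11 without stimulated mouse 7. With group as the only term, 29 of 82 were above 0, against 52.5% of all genes, and the median fell to -0.02. In that fit 0 members had an unadjusted p under 0.05, against 3.61% of all genes. The direction of the members as a set therefore turned with the term for the run. Within library numbers 1 to 11 and within 12 to 23, fitted apart, 42 members were above 0 in both, 8 were below 0 in both and 32 had opposite directions. In these bulk samples fewer cells of a type and less RNA per cell cannot be told apart.

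**Figure D2:**
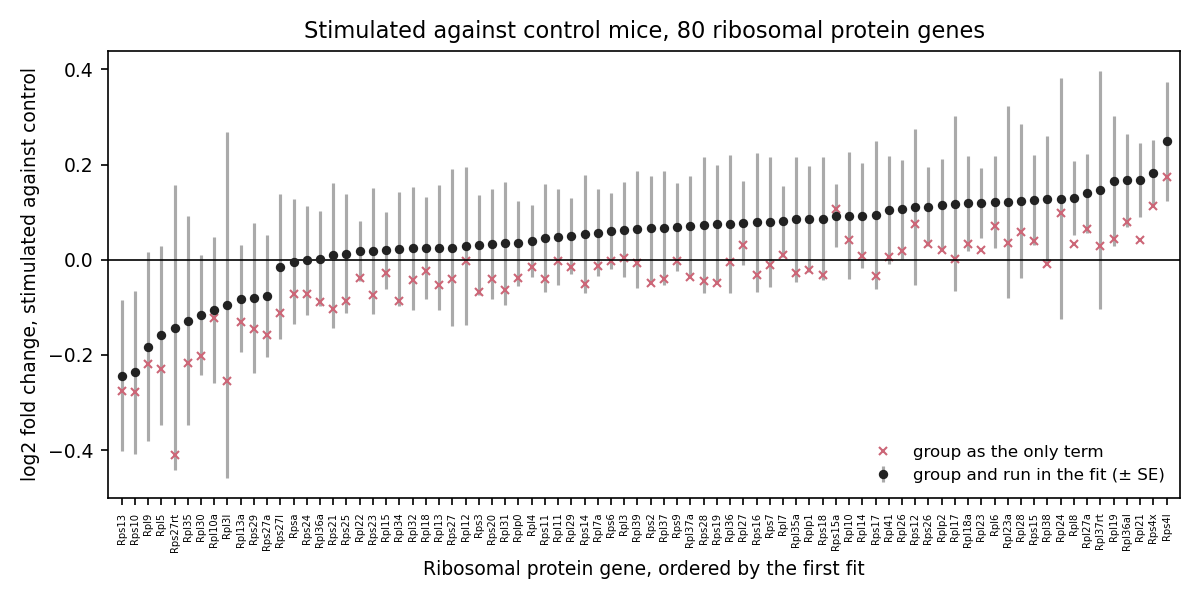
Of the tested genes, 80 on the x axis, in order of their log2 fold change between stimulated and control mice on the y axis; black points with bars give the fit with group and run ± SE (12 control and 10 stimulated mice), and red crosses the fit with group as the only term. The black points run from -0.24 (Rps13) to 0.25 (Rps4l), and for most genes the cross lies below the point.

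Among members with a positive log2 fold change, Rps4x had the smallest p. Its level was 7.63 to 15.0 CPM (median 10.6) in control mice and 6.56 to 17.5 (median 10.1) in stimulated mice. The groups overlapped, and within each group the mice of library numbers 1 to 11 were the higher ones. In numbers 1 to 11 the 6 control mice had 12.5 to 15.0 CPM (median 14.1) and the 4 stimulated mice 17.5, 14.3, 17.2 and 16.1. In numbers 12 to 23 control mice had 7.63 to 8.65 (median 8.26) and stimulated mice 6.56 to 10.3 (median 9.15). In 9 of 10 stimulated mice the level was above the control median of the same run. The log2 fold change was 0.18 ± 0.07 (SE, edgeR, unadjusted p = 0.0174, adjusted p = 0.361).

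Rpl21, a large subunit protein, had 6.64 to 18.4 CPM (median 11.1) in control mice and 7.65 to 16.6 (median 10.3) in stimulated mice. The ranges overlapped, and 9 of 10 stimulated mice were above the control median of their run. Its log2 fold change was 0.17 ± 0.08 (edgeR, unadjusted p = 0.0401, adjusted p = 0.416). It was 0.07 within numbers 1 to 11 and 0.23 within 12 to 23. Since 82 other genes share windows with Rpl21, its reads could be counted over 44.5% of its windows.

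The next members of positive change were Rps4l, Rpl36al, Rpl27a and Rpl8. Rps4l had 9.71 to 31.6 CPM (median 14.1) in control mice against 8.67 to 34.1 CPM (median 15.6) under stimulation, and its log2 fold change was 0.25 ± 0.13. Rpl36al had 4.06 to 10.6 CPM (median 7.46) in control and 3.83 to 11.9 (median 7.36) in stimulated mice, for which the log2 fold change was 0.17 ± 0.10. In both genes the groups overlapped over nearly their whole range. Rpl27a, a large subunit protein, had 11.6 to 27.6 CPM (median 19.0) in control and 12.3 to 27.2 (median 18.5) in stimulated mice. Rpl8 had 89.3 to 233 CPM (median 140) and 78.0 to 228 (median 131). Their log2 fold changes were 0.14 ± 0.08 and 0.13 ± 0.08. Adjusted p by edgeR was 0.452 for Rps4l, 0.511 for Rpl36al, 0.515 for Rpl27a and 0.521 for Rpl8.

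Among members with a negative log2 fold change, Rps13, a small subunit protein, had the smallest p. Control mice had 1.80 to 5.67 CPM (median 2.93) and stimulated mice 1.002 to 4.23 (median 2.29), and 8 of 10 stimulated mice were below the control median of their run. The log2 fold change was -0.24 ± 0.16 (edgeR, adjusted p = 0.550). Within library numbers 1 to 11 it was -0.03 and within 12 to 23 it was -0.46.

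Rps10, at the mRNA entry side of the head of the small subunit, had 0.809 to 2.10 CPM (median 1.46) in control mice and 0.673 to 2.03 (median 1.06) in stimulated mice. Its log2 fold change was -0.24 ± 0.17 (edgeR, adjusted p = 0.596). Its exons overlap the readthrough gene RPS10-NUDT3, with which it shares 407 of 449 windows. Rpl30 (-0.12 ± 0.13), Rpl9 (-0.18 ± 0.20), Rpl5 (-0.16 ± 0.19) and Rpl13a (-0.08 ± 0.11) followed, with adjusted p by edgeR from 0.739 to 0.806. In Rpl30 and Rpl13a 8 of 10 stimulated mice were below the control median of their run, in Rpl9 6 and in Rpl5 5. Single mice set much of these values. Without control mouse 7 the log2 fold change was -0.05 for Rpl30, -0.09 for Rpl9 and -0.0013 for Rpl5, and leaving out 1 mouse at a time moved that of Rpl13a between -0.14 (without stimulated mouse 10) and -0.04 (without stimulated mouse 7). It was -0.04 without control mouse 3, -0.05 without control mouse 11 and -0.12 without stimulated mouse 1. The sign turned for Rpl30 and Rpl13a with the mitochondrial share in the model, and for Rpl9 within library numbers 1 to 11. Rpl5, which carries the 5S rRNA into the large subunit and can bind Mdm2, had 1.03 to 3.80 CPM (median 2.09) in control and 1.002 to 3.12 (median 1.86) in stimulated mice. These 6 members had between 6.16% and 42.6% unique windows.

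**Figure D3:**
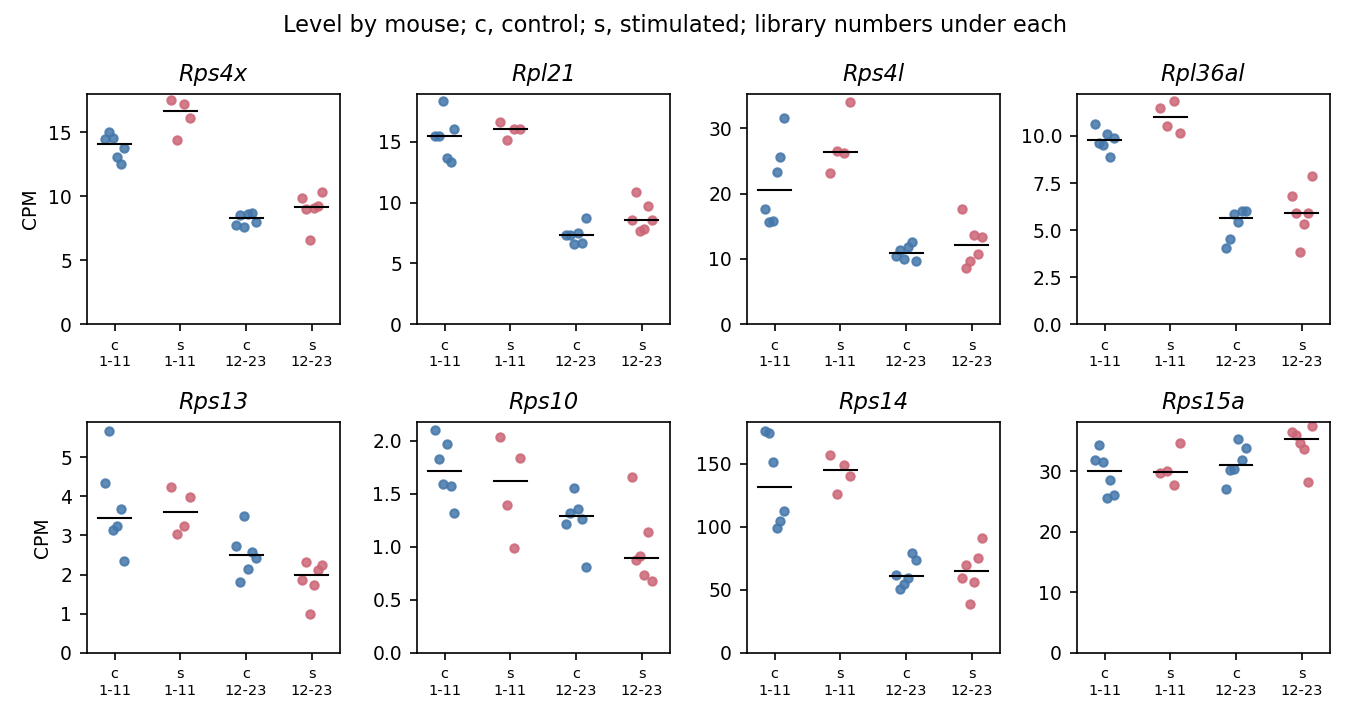
Level in CPM (y axes, from 0) of 8 genes in each of the 22 mice, by group and library numbers (x axes); points are mice, blue control and red stimulated, and black lines medians. Red and blue points overlap within each run for every gene, while for Rps4x, Rpl21, Rpl36al and Rps14 no point of numbers 12 to 23 reaches those of 1 to 11, and Rps15a shows no such step.

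By role, none of the lists of members held a gene with an adjusted p under 0.05 in this comparison. Of the 33 small subunit genes 25 had a positive log2 fold change (median 0.06), and of the 49 large subunit genes 42 (median 0.07). Over all genes tested 52.6% were above 0. With group as the only term 8 of the 33 and 21 of the 49 were above 0, against 52.5% of all genes. The 3 stalk genes, which recruit the GTPases of translation, had 0.03 (Rplp0), 0.08 (Rplp1) and 0.12 (Rplp2). The 8 genes listed for the exit tunnel had a median of 0.09, 7 of them above 0 (4 with group as the only term). The 4 genes listed for the mRNA entry and exit sites (Rps2, Rps3, Rps26 and Rps28) had a median of 0.07. That list did not hold Rps9 or Rps10, and Rps10 had a negative log2 fold change, as given above. Of the 18 listed genes mutated in Diamond-Blackfan anaemia, a disease of too few ribosomes in red cell precursors, 13 were above 0 (median 0.04). With group as the only term 3 of the 18 were above 0. The 4 X-linked genes had 0.18 (Rps4x), 0.09 (Rpl10), 0.06 (Rpl39) and 0.00 (Rpl36a).

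The members differed far more between runs of library numbers than between groups. They took 0.225 to 0.338% of all counts in the 10 mice of numbers 1 to 11 and 0.108 to 0.207% in the 12 mice of numbers 12 to 23, so that the runs did not overlap. Control mice had 0.130 to 0.338% (median 0.201) and stimulated mice 0.108 to 0.328% (median 0.192). Within numbers 1 to 11 the share was 0.281 ± 0.048% (SD, n = 6) in control and 0.297 ± 0.024% (n = 4) in stimulated mice, and within 12 to 23 it was 0.156 ± 0.017% (n = 6) and 0.157 ± 0.034% (n = 6). The lowest share of all, 0.108%, was that of stimulated mouse 7. Total counts per mouse were 27566695 to 41590164 in numbers 1 to 11 and 23090483 to 43668462 in 12 to 23.

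**Figure D4:**
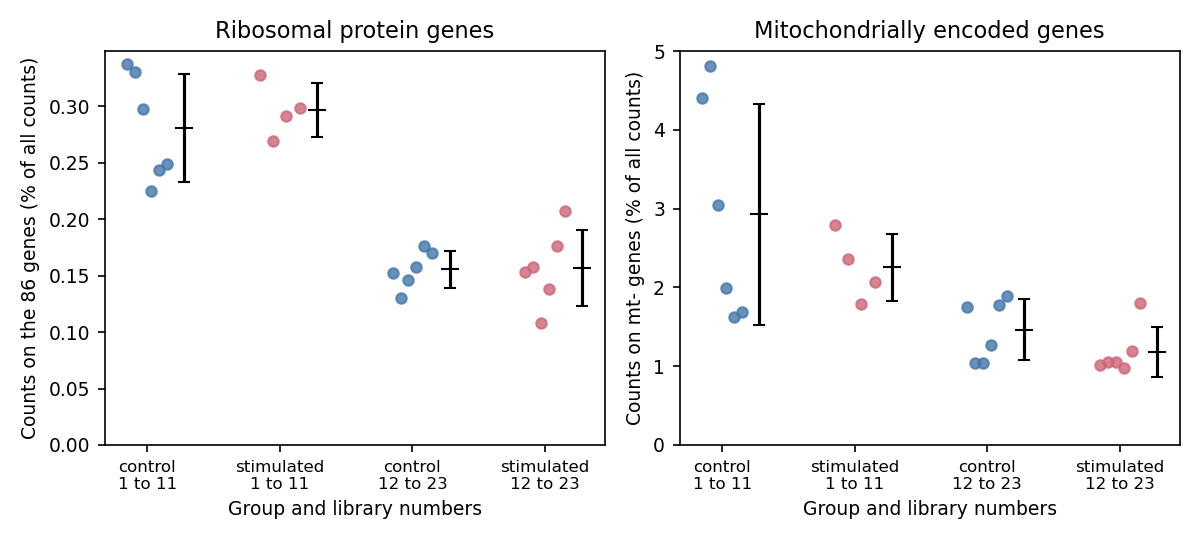
Percentage of all counts on the 86 ribosomal protein genes (left) and on the mitochondrially encoded genes (right) in each of the 22 mice, by group and library numbers on the x axis; black marks are mean ± SD. On the left all mice of numbers 1 to 11 (0.225 to 0.338%) lie above all mice of 12 to 23 (0.108 to 0.207%), in both groups.

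In the same edgeR model, 81 of 82 members were lower in numbers 12 to 23 with an adjusted p under 0.05, against 34.3% of all genes tested. In 34 members (41.5%) every mouse of 12 to 23 lay below every mouse of 1 to 11, against 12.2% of all genes. The median log2 fold change of the members was -0.88, and numbers 1 to 11 were 1.84-fold higher at that median. Over all genes it was -0.03. Rps27rt had the largest difference, with 0.372 to 0.910 CPM (median 0.522) in numbers 1 to 11 and 0.0382 to 0.382 (median 0.120) in 12 to 23, at a median of 10.5 counts per mouse (log2 fold change -1.72 ± 0.29, edgeR, adjusted p = 1.15e-05).

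Better covered members followed. Rpl36, a large subunit protein, had 2.56 to 4.09 CPM (median 3.38) in numbers 1 to 11 and 0.729 to 2.02 (median 1.53) in 12 to 23, with no overlap (-1.18 ± 0.14). Rps19, the first gene found mutated in Diamond-Blackfan anaemia, had 35.6 to 60.0 CPM (median 46.8) and 13.6 to 30.4 (median 22.1), again with no overlap (-1.13 ± 0.12). Rps14 had 98.7 to 176 CPM (median 145) and 38.4 to 90.8 (median 60.8), at -1.12 ± 0.12. Each of the 3 genes was below its lowest value of numbers 1 to 11 in all 12 mice of 12 to 23.

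At the other end, Rps15a, a small subunit protein, was the only tested member that was not lower: 25.6 to 34.7 CPM (median 29.9) in numbers 1 to 11 and 27.0 to 37.5 (median 33.8) in 12 to 23 (0.12 ± 0.07, edgeR, adjusted p = 0.10). Its annotated transcript used here has 5130 bases, 390 of them coding, the longest of all members. Rpl15, a large subunit protein, had 42.6 to 55.1 CPM (median 46.1) and 30.2 to 48.4 (median 37.4), a log2 fold change of -0.34 ± 0.08 (edgeR, adjusted p = 6.70e-04). Rps10 changed by -0.54 ± 0.17. In these genes the runs overlapped.

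Up to 1000 bases of annotated transcript, genes that are not members differed between runs by a like amount. Above 1000 bases the median of the members was below that of other genes of that annotated length. Among coding genes with transcripts of up to 600 bases, the median log2 fold change was -0.96 for the 32 members and -0.95 for the 185 other genes. From 600 to 1000 bases it was -0.83 for 30 members and -0.81 for 721 others, and from 1000 to 2000 bases -0.74 for 15 members and -0.46 for 3273 others. From 2000 to 4000 bases Rpl5 (-0.88) and Rps20 (-0.72) stood against a median of 0.11 for other genes, and above 4000 bases Rps15a (0.12) against 0.63. In the transcripts used, 891 of 2045 bases were coding in Rpl5, 357 of 3706 in Rps20 and 390 of 5130 in Rps15a. Whether such long forms were the ones expressed was not tested, so the length class of these members is uncertain. Across the 82 members the signed log2 fold change was nearer to 0 in those with longer transcripts (Spearman's rho with length 0.49) and had a rho of 0.02 with the share of unique windows, both across genes of the same libraries.

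**Figure D5:**
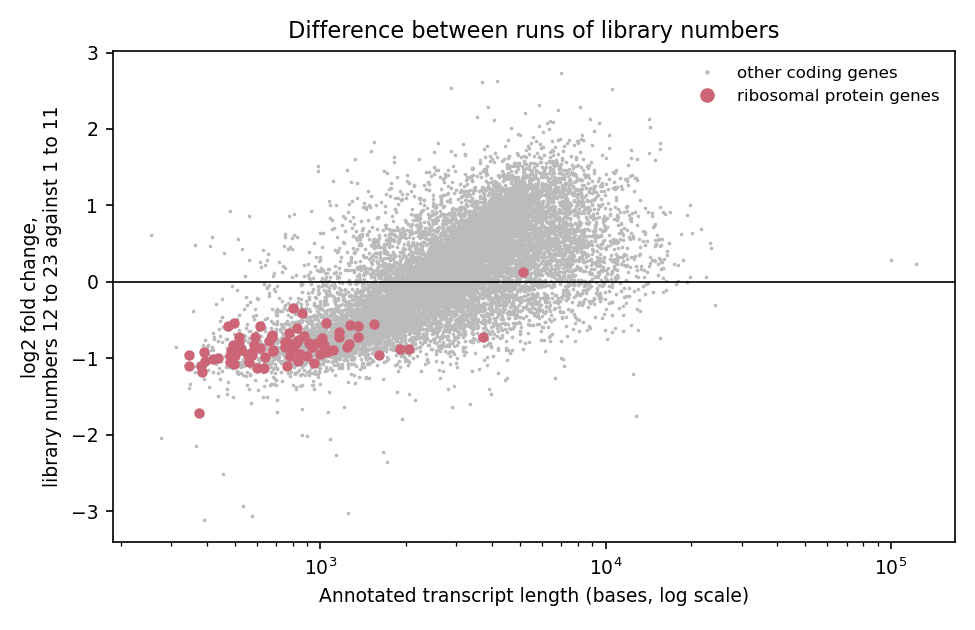
Each point is a tested coding gene; the x axis is the length of its annotated transcript in bases on a log scale and the y axis its log2 fold change between library numbers 12 to 23 and 1 to 11. The ribosomal protein genes (red, 80 genes) lie below 0 and mostly among the other short genes (grey). Apart from these stand Rpl5 at 2045 bases (-0.88), Rps20 at 3706 bases (-0.72) and Rps15a at 5130 bases, the gene above 0 (0.12).

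Other measures of the libraries moved with the runs. Mitochondrially encoded genes took 1.63 to 4.81% of counts in numbers 1 to 11 and 0.982 to 1.90% in 12 to 23, and the haemoglobin genes of blood, 4 of 4 on the marker list, were lower in 12 to 23 (summed level 146 to 548 CPM against 63.7 to 152). Markers of other cells moved in both directions. The summed level of the 4 excitatory neuron markers was 2716 to 3586 CPM in 1 to 11 and 4460 to 7495 in 12 to 23, and that of the 2 oligodendrocyte progenitor markers 31.3 to 42.6 and 89.1 to 120.0, both without overlap. Of the 4 excitatory markers 3 were higher at an adjusted p under 0.05, and Neurod6 had -0.28 ± 0.13 (edgeR, adjusted p = 0.0589). Of 5 astrocyte markers 4 were higher at an adjusted p under 0.05 (edgeR, median log2 fold change 0.67, summed level 1095 to 2163 CPM against 1529 to 2884). Inhibitory neuron markers (2 of 5 higher, Sst lower at -1.04), microglial markers (2 of 5 higher, P2ry12 at -0.27 and C1qa at -0.68 lower) and endothelial markers (3 of 4 higher, Cldn5 lower at -0.48) were mixed at an adjusted p under 0.05, and the summed level of the inhibitory markers had a median of 825 CPM in 1 to 11 and 669 in 12 to 23. The part of these markers in the members' values was not tested. From mouse to mouse within a run, the mean centred log2 CPM of the tested members followed that of 906 other coding genes of up to 1000 bases (Pearson's r 0.97 over the 10 mice of numbers 1 to 11 and 0.95 over the 12 of 12 to 23). Without the 2 mice farthest from the median these were 0.96 and 0.87. With the mitochondrial share r was 0.80 and 0.59, and without the 2 farthest mice 0.73 and 0.43. With total counts it was -0.23 and 0.20, and both signs turned without the 2 farthest mice (0.25 and -0.18). These are descriptions over mice of both groups that share their library preparation. What part of the members' difference between runs goes with length or RNA quality was not tested, and the date of preparation cannot be told apart from the batch of mice.

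The group difference of the members was also compared between runs. No member had an unadjusted p under 0.05 for the interaction of group and run (0 of 82), against 8.01% of all genes, and the adjusted count was 0 by edgeR's quasi-likelihood test and 0 by DESeq2's Wald test. Within numbers 1 to 11, 14 members were below 0, and within 12 to 23, 34 were.

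The mitochondrial share of counts was added to the model with run after the data had been seen. In that fit 20 members had an unadjusted p under 0.05 with a higher level in stimulated mice, against 6.63% of all genes, 7 members were below 0, and the median log2 fold change was 0.15. None had an adjusted p under 0.05. The mitochondrial share was 1.04 to 4.81% in control mice (median 1.76) and 0.982 to 2.80% in stimulated mice (median 1.49). Markers of several cell types differed between groups at an unadjusted p, and none at an adjusted p under 0.05. All 5 markers of oligodendrocytes were lower in stimulated mice at an unadjusted p under 0.05 (median log2 fold change -0.73, smallest adjusted p 0.333), with summed levels of 2902 to 18182 CPM in control and 2113 to 5417 CPM in stimulated mice. At the same unadjusted threshold Ttr of the choroid plexus was lower (-1.88 ± 0.53, summed level of its 3 markers 3.53 to 132 CPM in control and 4.71 to 16.2 in stimulated mice), and Slc32a1 (0.31) and Sst (0.24) of inhibitory neurons and Slc17a7 (0.16) of excitatory neurons were higher. The part of these markers in the members' values was not tested.

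The members varied together. After values were centred within group and run, the correlation over the 22 mice had a median of 0.64 over the 3321 pairs of members (quartiles 0.39 and 0.81), and 94.2% of pairs were above 0. Over all pairs of the 17524 genes the median was 0.00. Rpl32 (median r with the other members 0.84), Rpl26 (0.84) and Rplp1 (0.84) stood at the centre. Rps4l, at a median of 430.5 counts per mouse, had a median r of -0.16, Rpl28 -0.01 and Rps10 0.00. Rps27rt (0.16) and Rpl3l (0.17) had medians of 10.5 and 11 counts. The pairs share libraries and depth. Within each run the mean of the members also followed that of 906 other short coding genes (Pearson's r 0.97 and 0.95), and pairs among those genes were not measured.

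Other genes of the same machinery were taken from lists. Among ribosomal proteins whose names fall outside the rule, Fau, Rack1, Rps3a1, Rpl22l1 and Rpl7l1 were lower in numbers 12 to 23 with an adjusted p under 0.05, and none of these passed between groups. Their log2 fold changes between groups ran from -0.11 for Rpl22l1 to 0.18 for Fau, which encodes the small subunit protein eS30 fused to a ubiquitin-like part. Of 77 tested mitochondrial ribosomal protein genes, which serve the separate ribosome inside mitochondria, 74 were lower in numbers 12 to 23 with an adjusted p under 0.05 (median -0.74), against 34.3% of all genes. Between groups 68 had a positive log2 fold change (median 0.08), against 52.6% of all genes. Of these, 19 had an unadjusted p under 0.05, against 6.05% of all genes in that direction, and 0 an adjusted p under 0.05 by edgeR. With group as the only term 42 were above 0 (median 0.01), against 52.5% of all genes, and 0 had an unadjusted p under 0.05.

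Initiation and elongation factors were mixed between runs. Of 52 initiation factor genes 29 were lower and 16 higher in numbers 12 to 23 at an adjusted p under 0.05, and of 8 elongation factors 5 were lower and 2 higher. Over all genes 34.3% were lower and 33.7% higher. Eef1a1, the main elongation factor and itself a TOP mRNA, changed by -0.35 ± 0.09 between runs, and Eef2, which moves the ribosome along the mRNA, by 0.08 ± 0.08. Between groups, 11 of the 52 initiation factors were above 0 and 2 below 0 at an unadjusted p under 0.05, and 3 of the 8 elongation factors above 0 and 1 below, with Eif5a and Eif5a2 on both lists, against 6.05% of all genes above 0 and 11.5% in either direction. The count at an adjusted p under 0.05 was 0 by edgeR. With group as the only term the unadjusted counts were 0 above and 1 below for initiation factors and 0 for elongation factors. Eif5a2, a paralog of the translation factor Eif5a, had a log2 fold change of -0.23 ± 0.09 (edgeR, adjusted p = 0.364). Eef1a2, the form of adult neurons and muscle, had 88.8 ± 16.4 CPM (SD, n = 12) in control and 104.8 ± 20.8 CPM (n = 10) in stimulated mice (0.20 ± 0.09, edgeR, adjusted p = 0.392).

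Regulators of TOP mRNAs split between runs, as all genes did, with 6 of 13 higher and 5 lower in numbers 12 to 23 at an adjusted p under 0.05. Tsc1 (1.41 ± 0.06), Tsc2 (1.37 ± 0.05) and Rptor (0.87 ± 0.06), all with long transcripts, were higher, and Rheb (-0.84 ± 0.08) and Eif4ebp1 (-0.88 ± 0.09) were lower. None of the 13 had an unadjusted p under 0.05 between groups. Larp1, the TOP binding protein, had a log2 fold change of 0.10 ± 0.06 and Mtor of 0.00 ± 0.06. Among 26 genes of rRNA synthesis and ribosome assembly 23 were above 0 between groups (median 0.09), against 52.6% of all genes. At an unadjusted p under 0.05 there were 3 (Polr1c, Nhp2 and Eif6), all higher, against 6.05% of all genes in that direction and 11.5% in either, and 0 had an adjusted p under 0.05 by edgeR. With group as the only term 21 were above 0 (median 0.06), and 0 had an unadjusted p under 0.05.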

How the data were processed

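RNA from ACC tissue of 22 mice was copied into full-length cDNA from a small input (SMART-Seq v4), tagmented with Tn5 and read as single 50-base reads. After trimming (cutadapt 1.10) and alignment to mm10 (STAR 2.5.3a), the authors deposited whole-number counts per gene of uniquely aligned reads (htseq-count 0.6.1p1, Ensembl annotation). They also deposited a signal, the same counts divided by DESeq2 size factors, which was not tested, and their own log2 fold changes, p-values and adjusted p-values, which were not used. Totals were 23090483 to 43668462 counts per mouse. There were 0 further per-sample columns.

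Counts were fitted with edgeR 4.0.16 (R 4.3.3; TMM, glmQLFit, glmQLFTest) on 17524 genes that reached 10 counts in 10 or more mice, with group and run of library numbers (1 to 11, 12 to 23) as terms and Benjamini-Hochberg adjustment. RNA integrity and batch, covariates of the study, are not in the labels, so the run stood in for batch and integrity was left out. The paper points to a supplementary table for both, which was not used here. The standard error is the log2 fold change over the square root of F. The fit was tested on simulated data. Gene positions, transcripts and 50-base windows came from GENCODE M21 (37772 of 37786 genes matched) and start windows from RefSeq. The transcript used was the basic, well-supported coding one with the best APPRIS rank and longest coding part.

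The members and lists were chosen with earlier results of these data known. Genes named are the 6 members of smallest p in each direction between groups, the 8 highest and 3 lowest levels per kilobase, the 4 at each end of the difference between runs, 6 paralog pairs and the stalk genes. Some genes taken in by these rules are not reported here. Others (Rpl23a, Rpl7a, Rpl26, Rpl28, Rpl32, Rps6, Rps20 and the list genes) were chosen after their values were seen. Alternatives were group alone, size factors of DESeq2 1.42.0 and its Wald test, voom with quality weights (limma 3.58.1), other count minimums, replicate blocks, each run alone, 1 surrogate variable (sva 3.50.0), each mouse left out, other denominators and, added after seeing the data, the mitochondrial share. Same-numbered mice are different animals. Each mouse is 1 library, so p-values measure the spread between mice.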

Additional observations from a re-analysis of the deposited data

How the results depend on the processing

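The values of the text are from edgeR with group and run. The count of members at an unadjusted p under 0.05 between groups, 2, was 0 with group as the only term, 1 with at least 10 counts in every mouse, 1 in library numbers 1 to 11 only, 1 in 12 to 23 only, 12 with 1 surrogate variable and 20 with the mitochondrial share. The share of all genes with 1 surrogate variable is not given here, so the 12 is not read as a result about the members. Leaving out 1 mouse gave 1 to 9, the 9 without stimulated mouse 7, and 1 where control mouse 4, 7, 8, 9 or 10 or stimulated mouse 1 was left out. With all mice 11.5% of all genes passed. The share of all genes with a mouse left out is not given, so the 9 is not read as a result about the members. The count at an adjusted p under 0.05 was 0 under every alternative run. The count of members below 0, 15, was 53 with group as the only term, 34 in library numbers 12 to 23 only and 7 with the mitochondrial share. Leaving out 1 mouse gave 12 to 36 (29 without control mouse 4, 23 without stimulated mouse 1, 36 without stimulated mouse 10) and medians of 0.02 to 0.11. The cause was not tested. Replicate numbers 1 to 10 name different animals and follow the library numbers. Same-numbered mice correlated at a mean of 0.31 within group and 0.05 within group and run, with 3 of 10 pairs over 0.1 in the latter. Mice of unlike numbers had means of -0.03 and -0.005. With 10 pairs, a link between same-numbered mice beyond the run cannot be settled. With the replicate block beside run 23 members were below 0, and with the block in place of run 69. Named genes changed sign in 5 instances: Rpl21 (-0.023) and Rpl8 (-0.046) with the replicate block in place of run, Rpl9 (0.049) in library numbers 1 to 11 only, and Rpl30 (0.016) and Rpl13a (0.030) with the mitochondrial share. Rps15a passed the test between runs with limma voom (0.17). The count of members different between runs was 80 to 81 when 1 mouse was left out and changed by under 1.5 times in every alternative. The share of counts kept its medians within 1 SD under other denominators. Depth limits the 23 members with a median count under 100.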
